A study of Mus musculus with 34 samples.

Results

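H19 and 5 genes of the insulin-like growth factor (IGF) axis, Igf1, Igfals, Igfbp1, Igfbp2 and Igfbp4, were followed through mouse liver samples made with different forms of beta-catenin. The genes were taken by symbol. All 6 are among the 14086 genes of the normalised count table, which covers 18 libraries in 6 groups, and H19, Igfbp1 and Igfals are among the 1659 genes of a table of z-scores that also holds 16 further libraries. H19 and Igfbp2 were known to differ between tumour groups when the genes were chosen, so the differences of the 6 genes among those groups are given as a description with no test. Genes of further lists, also chosen with earlier results known, were tested among those groups.

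The tumour groups are livers with the β-catenin skip 1 isoform induced (skip1 induced, n = 5), the skip 2 isoform induced (skip2 induced, n = 2) and ΔN90-β-catenin induced, written dN90 induced here (n = 4). The references are the skip 1 isoform alone (skip1 alone, n = 3), the skip 2 isoform alone (skip2 alone, n = 2) and wild type liver (n = 2). The z-score table adds subtype A (n = 4), subtype B (n = 9) and livers labelled sgActin and YAPS127A (n = 3), which carry a guide against actin with an active form of the growth regulator YAP. The labels' protocols name frozen liver tumours as the RNA source, while the source labels say only liver cell and the form induced. Calling the induced groups tumours is thus a choice made here. Skip 1 and skip 2 are exon-skipped isoforms, a kind of mutant that CRISPR editing of beta-catenin can give, ΔN90 lacks the N-terminal stretch through which beta-catenin is marked for destruction, and tumours were modelled by hydrodynamic injection, which brings plasmids into a share of the hepatocytes. For the 4 skip2 libraries the source label says skip 2 while another label repeats skip 1, and the source label was used. Strain, sex and age are not given in the labels, nor what is injected beside each isoform or whether samples come from separate animals, so p-values measure only the spread between these samples.

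The libraries are shallow, from an estimated 361772 reads (dN90 induced replicate 3) up to 933146 reads (skip2 induced replicate 1), and 1 read was worth 0.46 to 1.64 normalised counts. All 10 hepatocyte markers were present in every group. Their summed level was 15748 to 51715 in the induced libraries and 57032 to 75068 in the 7 libraries without induction, while the 5 cholangiocyte markers in the table summed to 73.5 to 659 in the induced libraries and 5.21 to 27.8 without induction. Sums of 8 stellate cell and fibroblast markers were 394 to 438 in skip2 induced against 232 to 237 in skip2 alone, 230 to 332 in skip1 induced against 180 to 206 in skip1 alone, and 118 to 262 in dN90 induced against 149 to 237 without induction. Sums of 8 Kupffer cell and macrophage markers were 268 to 426 in skip1 induced against 218 to 248 in skip1 alone, 356 to 401 in skip2 induced against 269 to 293 in skip2 alone, and 186 to 327 in dN90 induced against 197 to 293 without induction. Proliferation markers summed to 46.0 to 146 with induction and 5.68 to 12.8 without. The part of these markers in the results was not tested. In bulk tissue, fewer cells of a type and less RNA per cell cannot be told apart. Skip1 induced replicates 1 and 2 stood apart from the other induced libraries, at 4.81 and -7.48 on the first principal component, where the others lay at 14.3 to 54.2 and the libraries without induction at -45.0 to -36.2.

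H19 is an imprinted long non-coding RNA that is abundant in fetal liver and silenced after birth. It lies beside Igf2, the gene of the fetal growth factor IGF-II, and it also carries the hairpin of the microRNA miR-675. After birth hepatocytes make most of the circulating IGF-I, driven by growth hormone through its receptor and the transcription factor STAT5. IGF-I travels in a complex with a binding protein and the acid-labile subunit, which Igfals encodes, while the binding proteins encoded by Igfbp1, Igfbp2 and Igfbp4 hold IGFs in smaller complexes. Insulin represses Igfbp1 in liver by removing FOXO factors from its promoter.

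H19 spans chromosome 7, 142575529 to 142578143, on the minus strand (mm10, GENCODE M21), and is annotated as a long intergenic non-coding RNA. The RefSeq miRNA table (GRCm38.p6) places the mature miR-675-5p at chr7:142577112-142577133 and miR-675-3p at chr7:142577078-142577099, both on the minus strand inside H19. They are shown because they are the small RNA products of the transcript that was measured, with the seed, bases 2 to 8, in capitals. The microRNAs themselves were not measured.
mmu-miR-675-5p: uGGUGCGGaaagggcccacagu
mmu-miR-675-3p: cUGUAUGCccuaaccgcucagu
The seeds of the pair differ.

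The RefSeq promoter window of Igfbp1 (chr11:7197537-7197836, plus strand, GRCm38.p6) covers 250 bases before and 50 after the start site. It holds CAAAACAA with its first base at -108 and CAAAATAA on the other strand at -98, shown in capitals, and this pair of motifs is known as the insulin response element bound by FOXO factors. Of 32851 promoter windows of that length, 2.51% hold CAAAACAA and 1.66% hold CAAAATAA on either strand.
Igfbp1 promoter: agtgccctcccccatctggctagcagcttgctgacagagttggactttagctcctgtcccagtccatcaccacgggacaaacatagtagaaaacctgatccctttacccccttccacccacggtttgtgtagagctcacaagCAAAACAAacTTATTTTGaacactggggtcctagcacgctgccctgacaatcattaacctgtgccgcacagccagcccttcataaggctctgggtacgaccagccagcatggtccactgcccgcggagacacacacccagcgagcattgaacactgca

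One of the 3 RefSeq windows of Igfals (chr17:24877981-24878280, plus strand) holds TTCCTAGAA with its first base at -58, in capitals below, a match to the STAT motif TTCNNNGAA that 8.3% of windows hold on either strand. An element of this kind in the Igfals promoter is known to carry the growth hormone response.
Igfals promoter: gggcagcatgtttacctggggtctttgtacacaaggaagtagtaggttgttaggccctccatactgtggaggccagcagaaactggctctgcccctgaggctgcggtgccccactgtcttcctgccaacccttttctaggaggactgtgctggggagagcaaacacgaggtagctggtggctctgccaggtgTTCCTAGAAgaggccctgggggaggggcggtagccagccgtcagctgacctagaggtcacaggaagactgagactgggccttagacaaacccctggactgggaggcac
The same window holds TGTTTAC with its first base at -242, the FOXO motif GTAAACA on the other strand, which 3.65% of windows hold on either strand. A second Igfals window held TTCTCAGAA at -236, and no window of Igf1, Igfbp1, Igfbp2 or Igfbp4 held the STAT motif. Both promoters are shown because the 2 genes moved in opposite directions with dN90 induced. A match describes letters only, and no binding was measured.

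H19 was near 0 in every liver without induction and was present in every tumour group, at very different levels. In skip2 induced livers H19 had 196 and 116 normalised counts, and in dN90 induced livers it had 35.4, 15.3, 148 and 70.5. In skip1 induced livers it had 1.08, 4.63, 10.2, 11.7 and 5.33 normalised counts. In the references H19 was listed at 0 in all 3 skip1 alone livers, at 0 and 1.37 in skip2 alone and at 1.13 and 0 in wild type. The order of the group means was thus skip2 induced, dN90 induced, skip1 induced and then the references, with skip2 induced and dN90 induced overlapping and skip1 induced wholly below both. The single non-zero skip2 alone library, the single non-zero wild type library and skip1 induced replicate 1 each rest on an estimated 1 read, whereas the other skip1 induced libraries rest on 5 to 13 reads and the skip2 induced ones on 195 and 427.

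H19 passed the expression filter, a mean of at least 10 normalised counts over the 18 libraries, only through skip2 induced and dN90 induced, so a difference there was in part built in. On the log2(normalised count + 1) scale H19 was higher by 6.62 (SE 0.87) in skip2 induced than in skip2 alone, with an adjusted p = 2.67e-05 by limma with Benjamini-Hochberg adjustment over 6592 genes. Against the mean of the 3 groups without induction it was higher by 5.26 (SE 0.55) in dN90 induced, with a limma adjusted p = 2.1e-07. In skip1 induced against skip1 alone the difference was 2.67 (SE 0.64, limma adjusted p = 0.00705), and since all skip1 alone libraries are listed at 0 no fold can be given. That value depends on the pseudocount, being 3.52 with 0.5 and 1.12 with 5, when its limma adjusted p was 0.0833, and with quantile normalisation it was 1.84 at 0.1.

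**Figure D1:**
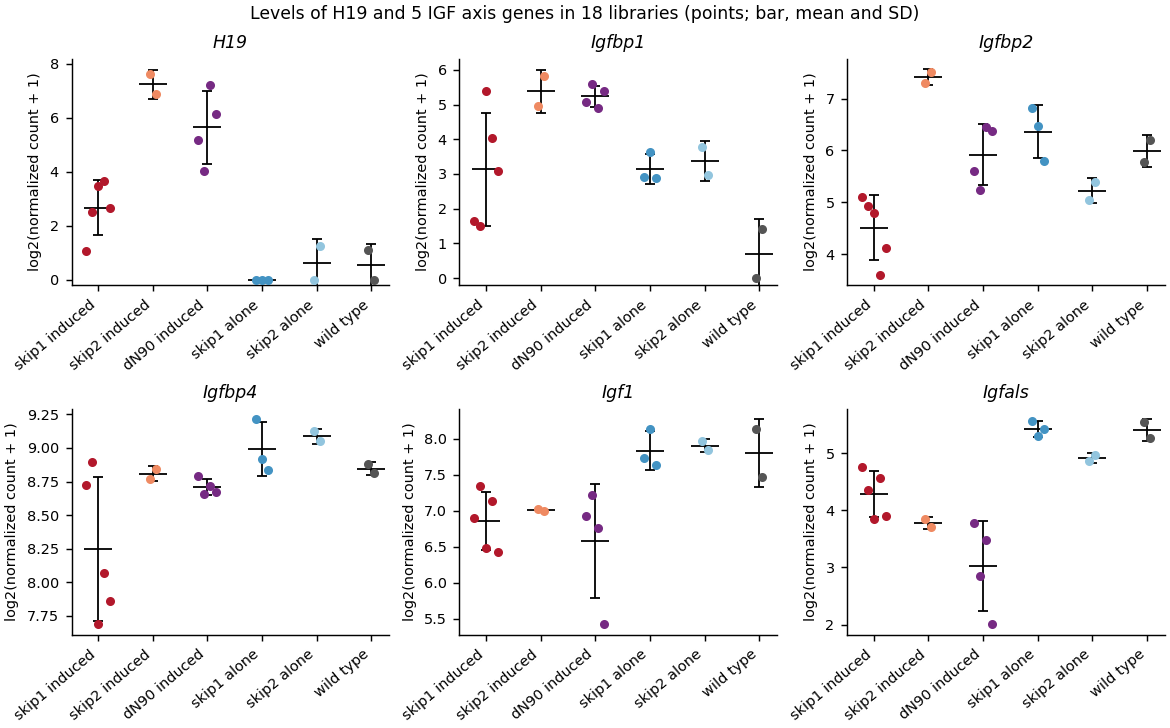
Levels of H19 and the 5 IGF axis genes as log2(normalised count + 1) on the y axes, whose ranges differ, with 1 point per library, the group mean as a long bar and its SD as whiskers, induced groups left of the references. H19 lies at or near 0 in all 7 libraries without induction, Igfbp2 is low in skip1 induced and high in skip2 induced, and Igfals is lower in every induced library than in every reference library.

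Igf2, the coding neighbour 72.6 kb from H19, was listed at 0 in all 7 libraries without induction. It had 1.60 and 5.06 normalised counts in skip2 induced, 2.06, 0, 5.32 and 0.866 in dN90 induced and 0.938, 1.96, 0, 0.787 and 0 in skip1 induced. These values rest on at most an estimated 8.5 reads, and with a mean of 1.03 Igf2 was not tested. Of 15 genes listed as neighbours of H19 on chromosome 7, 8 are in the table and 2 passed the filter, Ctsd, a lysosomal protease gene, and Cd81, a tetraspanin gene, and neither was called in any comparison. Mrpl23, a mitochondrial ribosomal protein gene 34.8 kb from H19 on the other side, averaged 7.54 to 11.2 normalised counts in all 6 groups. Lsp1, a leukocyte gene 80.7 kb away that was looked up after its values were seen, averaged 4.61, 3.68 and 4.57 in skip1, skip2 and dN90 induced, against 0.392, 1.88 and 0 in skip1 alone, skip2 alone and wild type, and was not tested.

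Igf1, the circulating ligand, was lower in every tumour library than in every reference library. It had 118, 162, 88.4, 140 and 85.4 normalised counts in skip1 induced, 129 and 126 in skip2 induced and 120, 147, 108 and 42.0 in dN90 induced. The references were at 210, 280 and 197 in skip1 alone, 249 and 228 in skip2 alone and 280 and 176 in wild type. No tumour library reached the lowest reference library, and the 3 tumour groups overlapped one another.

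Of these differences, that of dN90 induced against the livers without induction was -1.27 in log2 units (limma adjusted p = 0.000835, SE 0.27), and it kept its call without any 1 of the 11 libraries. Against skip1 alone, Igf1 was at -0.97 in skip1 induced (SE 0.31, limma adjusted p = 0.0378). That call was lost without skip1 induced replicate 1 (-0.98), 3 (-0.88) or 5 (-0.86) and without skip1 alone replicate 1 (-1.02), 2 (-0.82) or 3 (-1.07), with a depth covariate (-0.94) and with quantile normalisation (-0.62). Against skip2 alone, skip2 induced stood at -0.90 (SE 0.42), and with a limma adjusted p = 0.168 this did not pass the threshold, which it did when the compared groups alone were fitted (limma adjusted p = 0.0278). An antisense gene, Igf1os, overlaps the first part of Igf1 (chromosome 10, 87858265 to 87937042). The libraries are strand-specific per the labels, but the counting setting is not given in the sources used here.

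Igfals, the gene of the acid-labile subunit (chromosome 17, 24865997 to 24882010), was likewise lower in every tumour library. It had 26.1, 19.6, 13.5, 22.8 and 14.0 normalised counts in skip1 induced, 13.5 and 12.1 in skip2 induced and 12.7, 6.19, 10.1 and 3.01 in dN90 induced. In the references it had 46.5, 38.4 and 42.0 in skip1 alone, 28.0 and 30.5 in skip2 alone and 45.8 and 37.8 in wild type. All tumour libraries lay below all references, and every dN90 induced library lay below every skip1 induced library.

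The largest difference was in dN90 induced, where Igfals averaged 8.01 ± 4.28 (SD, n = 4) and fell by 2.23 log2 units relative to livers without induction (limma adjusted p = 1.85e-06, SE 0.27). In skip1 induced it averaged 19.2 ± 5.50 (n = 5), against 42.3 ± 4.09 (n = 3) in skip1 alone, at a log2 difference of -1.14 (limma adjusted p = 0.0190, SE 0.32). That call was lost without skip1 induced replicate 3 (-1.03) and without skip1 alone replicate 1 (-1.07) or 3 (-1.14). Skip2 induced differed from skip2 alone by nearly the same amount, -1.14 (SE 0.43), with a limma adjusted p = 0.0842, or 0.0442 when those groups alone were fitted. Against dN90 induced, Igfals was higher in skip1 induced by 1.27 (95% interval 0.66 to 1.87), and skip2 induced was at 0.76 (95% interval -0.03 to 1.54).

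Upstream of both genes, the growth hormone receptor gene Ghr fell in all 3 tumour groups. It had 146, 206, 108, 109 and 135 normalised counts in skip1 induced, 67.0 and 96.9 in skip2 induced and 59.9, 42.8, 32.8 and 23.2 in dN90 induced. The references had 241, 284 and 347 in skip1 alone, 396 and 318 in skip2 alone and 376 and 324 in wild type. The groups fell into the order skip1, skip2, dN90 induced, each library of 1 group below every library of the one before, and all were below the references.

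By limma, Ghr differed from the references by -1.07 in skip1 induced (SE 0.26, adjusted p = 0.00913), -2.12 in skip2 induced (SE 0.36, adjusted p = 0.000397) and -3.10 in dN90 induced (SE 0.23, adjusted p = 1.49e-09). The first call was lost without skip1 alone replicate 3 (-0.93, limma adjusted p = 0.062) and with quantile normalisation (-0.69). Between tumour groups, Ghr was higher in skip1 induced than in dN90 induced by 1.84 (SE 0.24, limma adjusted p = 3.8e-05). For skip1 against skip2 induced it was 0.76 and for skip2 against dN90 induced 1.09, with limma adjusted p = 0.185 and 0.0634, neither past the threshold. Of all genes, 4.63% were called between skip1 and dN90 induced, 3.53% between skip1 and skip2 induced and 3.03% between skip2 and dN90 induced. Of 13 growth hormone signalling genes, 6 were tested. Ghr was the only one of them called in skip1 and skip2 induced, beside 14.7% and 14.9% of all genes. In dN90 induced, beside 37.5% of all genes, the phosphatase gene Ptpn11 was also called, higher (0.46). The Ptpn11 call was lost in 5 of 11 fits that left out 1 library. Stat5b, which encodes a transducer of the signal, ranged over 14.7 to 39.7 normalised counts in the tumour libraries and 22.7 to 44.0 in the references and was called in no comparison. Socs2, a feedback inhibitor gene, averaged 5.24 over the 18 libraries and was not tested. Its means did not fall with Ghr, at 8.71, 5.69 and 5.41 in skip1, skip2 and dN90 induced. The Socs2 means were 2.83, 2.54 and 2.09 in skip1 alone, skip2 alone and wild type.

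**Figure D2:**
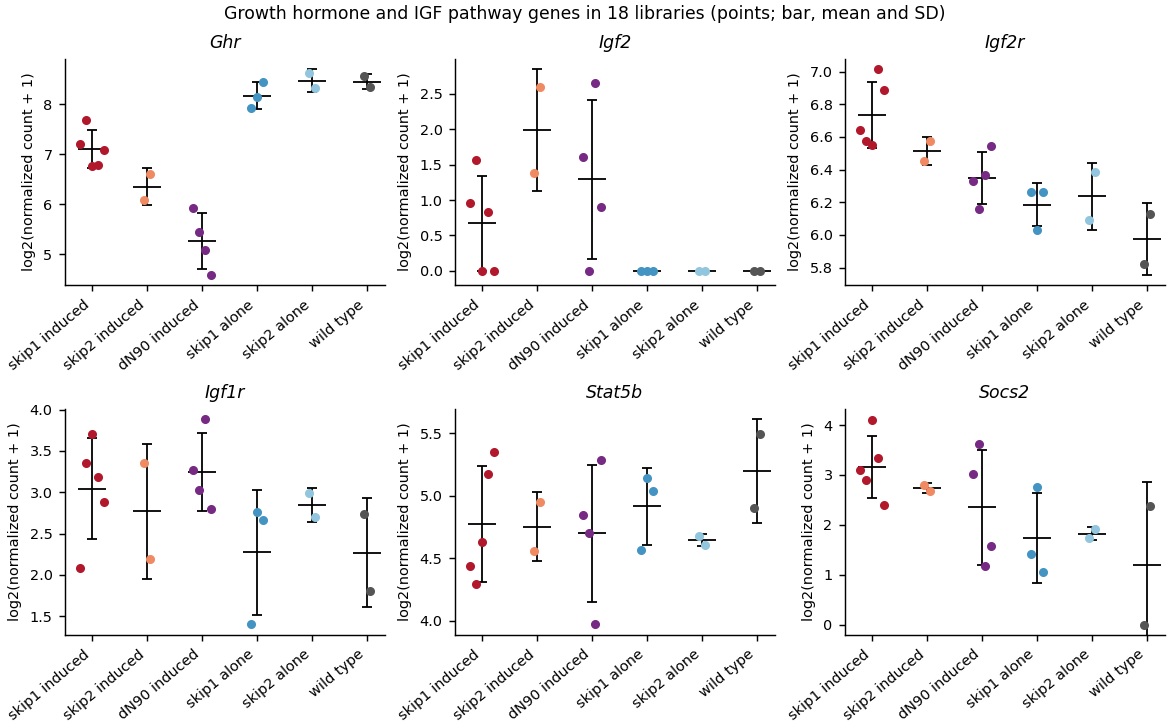
Levels of 6 genes around the IGF axis as log2(normalised count + 1), 1 point per library, long bars for group means and whiskers for SDs, with y axes that differ. Ghr steps down over skip1, skip2 and dN90 induced, Igf2 is at 0 in all reference libraries, and Stat5b shows no separation of the groups.

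Igfbp2 (chromosome 1, 72824503 to 72852474) was the gene whose tumour groups departed from their references in opposite directions. In skip1 induced it had 33.2, 29.5, 26.7, 11.1 and 16.4 normalised counts, against 112, 87.5 and 54.8 in skip1 alone. In skip2 induced it had 157 and 182, against 32.1 and 40.9 in skip2 alone. In dN90 induced it had 47.7, 36.7, 86.4 and 81.7, and wild type livers had 53.6 and 72.6. Skip1 induced lay wholly below and skip2 induced wholly above its own reference, while dN90 induced lay within the range of the references.

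In log2 units Igfbp2 fell by 1.85 in skip1 induced relative to skip1 alone (SE 0.33, limma adjusted p = 0.000822) and rose by 2.19 in skip2 induced relative to skip2 alone (SE 0.45, limma adjusted p = 0.00239). Both calls held in every fit run, including those without any 1 library. For dN90 induced the difference from livers without induction was 0.06 (95% interval -0.53 to 0.65, limma adjusted p = 0.885), and its sign depended on single libraries. Among the tumour groups the log2 difference of skip1 induced was -2.90 from skip2 induced (95% interval -3.69 to -2.11) and -1.41 from dN90 induced (-2.04 to -0.77), and that of skip2 induced was 1.50 from dN90 induced (0.68 to 2.31). These 3 values belong to the comparison from which Igfbp2 was chosen. The references were themselves at different levels, as skip1 alone averaged 84.6 ± 28.5 and skip2 alone 36.5 ± 6.26, on either side of wild type at 63.1 ± 13.5 (SD, n = 3, 2 and 2).

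Igfbp1 (chromosome 11, 7197782 to 7202546), the binding protein gene that insulin represses, was higher in dN90 induced livers and varied within skip1 induced. It had 33.0, 46.9, 28.8 and 40.7 normalised counts in dN90 induced and 29.9 and 55.4 in skip2 induced. In skip1 induced it had 2.15, 1.85, 40.9, 15.3 and 7.45. The references had 6.58, 11.5 and 6.39 in skip1 alone, 12.7 and 6.87 in skip2 alone and 0 and 1.66 in wild type. All dN90 induced and skip2 induced libraries lay above all references, whereas the skip1 induced libraries lay within the range of the references or above it. The lowest were replicates 1 and 2, which have an estimated 2 reads each for Igfbp1 and the highest hepatocyte marker sums of the tumour libraries but for skip2 induced replicate 2, at 32630 and 51715.

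Igfbp1 passed the expression filter only through tumour libraries, so a difference there was in part built in. The log2 difference was 2.83 in dN90 induced against livers without induction (SE 0.54, limma adjusted p = 0.000331), a call that held without any 1 library. That reference includes wild type, at 0 and 1.66 normalised counts, which lay below every library with an isoform alone. Its size is therefore not comparable with the differences from an isoform alone. In skip2 induced against skip2 alone it was 2.01 (SE 0.86, limma adjusted p = 0.125, or 0.0179 when those groups alone were fitted). In skip1 induced against skip1 alone it was -0.02 (95% interval -1.32 to 1.28), and 1.02 without skip1 induced replicates 1 and 2 together, a setting chosen after seeing the data (limma adjusted p = 0.166). Skip1 induced differed by -2.25 from skip2 induced (-3.74 to -0.76) and by -2.11 from dN90 induced (-3.30 to -0.91), though its replicate 3 overlaps both. Skip2 induced differed from dN90 induced by 0.14 (95% interval -1.40 to 1.69).

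Igfbp4 (chromosome 11, 99041244 to 99054392), which encodes a binding protein that restrains IGF action, was lower in part of the skip1 induced livers. In skip1 induced it had 422, 475, 205, 268 and 231 normalised counts, in skip2 induced 435 and 459 and in dN90 induced 443, 403, 420 and 407. It had 594, 483 and 456 in skip1 alone, 558 and 529 in skip2 alone and 470 and 449 in wild type. The skip1 induced libraries fell into a pair, replicates 1 and 2, at the level of the other tumour groups and 3 libraries well below every other library. The same pair has the hepatocyte marker sums given above, against 15748 to 21292 in replicates 3 to 5.

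Skip1 induced differed from skip1 alone by -0.74 log2 units (limma adjusted p = 0.0344, SE 0.23), or by -1.12 without the pair (limma adjusted p = 0.000221). The call with all 5 libraries was lost without skip1 induced replicate 3 (-0.60), 4 (-0.70) or 5 (-0.65), without skip1 alone replicate 1 (-0.63), 2 (-0.78) or 3 (-0.82), with a fit of the compared groups alone (limma adjusted p = 0.0994) and with quantile normalisation (-0.22). Neither skip2 induced (-0.28, limma adjusted p = 0.615) nor dN90 induced (-0.26, limma adjusted p = 0.313) passed the threshold, and quantile normalisation turned both signs, to 0.54 and 0.34. Between tumour groups the 95% interval was -1.11 to -0.01 for skip1 against skip2 induced and -0.91 to -0.02 for skip1 against dN90 induced.

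**Figure D3:**
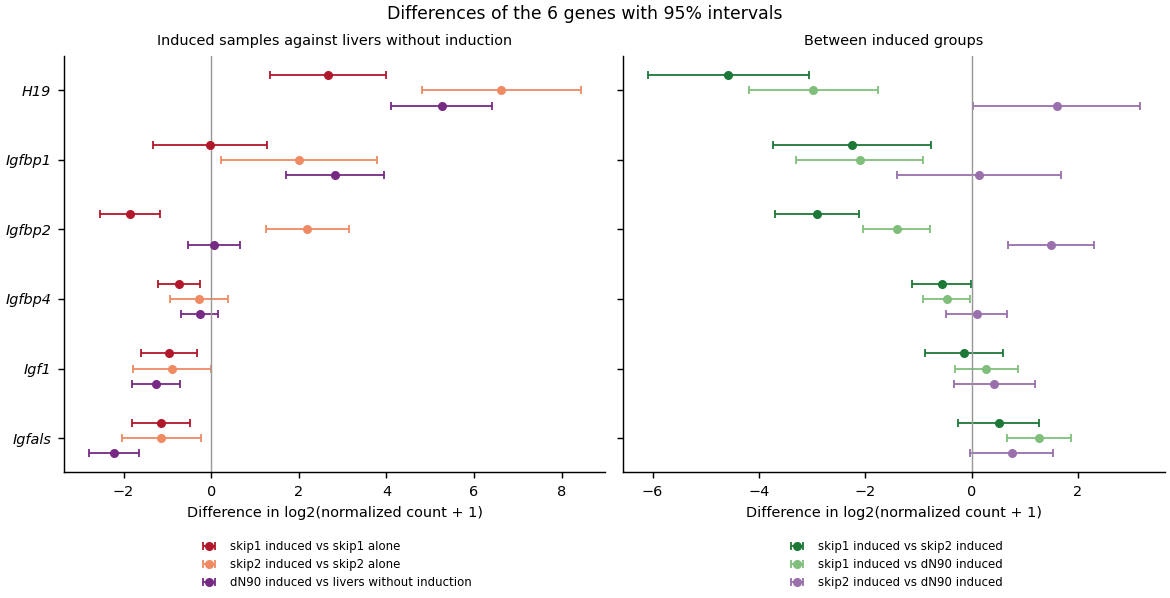
Differences in log2(normalised count + 1) of the 6 genes on the x axes, points with 95% intervals from limma, for tumour groups against livers without induction on the left and between tumour groups on the right. Positive values mean higher in the group named first, Igf1 and Igfals are negative in all 3 comparisons on the left, and Igfbp2 is negative in skip1 induced and positive in skip2 induced.

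Counted together, 5 of the 6 genes were called in skip1 induced against skip1 alone, H19 higher and Igf1, Igfbp2, Igfbp4 and Igfals lower, where 14.7% of the 6592 genes tested were called. In skip2 induced against skip2 alone 2 were called, H19 and Igfbp2, both higher, beside 14.9% of all genes. In dN90 induced against livers without induction 4 were called, H19 and Igfbp1 higher and Igf1 and Igfals lower, beside 37.5%. H19 and Igfbp1 passed the expression filter only through tumour libraries, so these counts describe the genes and support nothing further. Groups did not overlap for 4 of the 6 genes in skip1 induced (19% of all genes), 6 in skip2 induced (59.9%) and 5 in dN90 induced (23.5%). Among the tumour groups, 2 of the 6 did not overlap between skip1 and skip2 induced (20% of all genes), 3 between skip1 and dN90 induced (7.72%) and 1 between skip2 and dN90 induced (21.6%). Over all genes, 432 were called higher and 539 lower in skip1 induced, or 398 and 303 with quantile normalisation, and 430 higher and 555 lower in skip2 induced, or 436 and 341 with it. The comparisons of skip1 and dN90 induced, and of skip2 and dN90 induced, share reference libraries.

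No difference of the 6 genes between livers with an isoform alone and wild type passed the test. By limma with Benjamini-Hochberg adjustment, none of the 6 genes was called in skip1 alone against wild type, where 0 of 6592 genes were called (0%) and 272 had an unadjusted p under 0.05. In skip2 alone against wild type none was called either, beside 1 gene (0.0152%) and 330 at an unadjusted p under 0.05. The power was low for small changes. In simulated data with the fitted spread, 20% of changes of 1 log2 unit were called for skip1 alone and 13% for skip2 alone. For changes of 2 log2 units the shares were 78% and 75%. The farthest from wild type was Igfbp1, by 2.44 in skip1 alone (SE 0.78, limma adjusted p = 0.9999) and 2.67 in skip2 alone (SE 0.86, limma adjusted p = 0.781), with wild type at an estimated 0 and 2 reads. Groups did not overlap for 1 of the 6 genes in skip1 alone (17.8% of all genes) and 4 in skip2 alone (35.5%). Igf1 was at 0.03 (95% interval -0.78 to 0.83) in skip1 alone and 0.10 (-0.78 to 0.98) in skip2 alone, intervals that reach to both sides of 0.

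Of 12 further genes of IGF ligands, receptors and binding proteins, 10 are in the table and 4 were tested. In each of skip1, skip2 and dN90 induced 1 of the 4 was called, beside 14.7%, 14.9% and 37.5% of all genes. Igf2r, whose receptor clears IGF-II, was higher in skip1 induced by 0.55 (SE 0.18, limma adjusted p = 0.0400), a call lost in 6 of 8 fits that left out 1 library, in which it ranged over 0.47 to 0.59. Igfbp7, a binding protein gene expressed by vessel cells, was higher in skip2 induced by 1.38 (SE 0.33, limma adjusted p = 0.00612) and in dN90 induced by 0.92 (SE 0.21, limma adjusted p = 0.00138). In skip2 induced its call was lost without skip2 induced replicate 1 (1.34) or skip2 alone replicate 2 (1.18). The insulin receptor gene Insr was called in no comparison. Igf1r, the receptor of IGF-I, averaged 6.71 normalised counts over the 18 libraries and was not tested. The median of the 4 tested genes was 0.62, 0.08 and 0.54 in skip1, skip2 and dN90 induced, against -0.02, -0.06 and 0.01 over all genes. Of 7 genes of proteases and inhibitors that act on IGF binding proteins, none passed the filter.

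Downstream, 21 genes of insulin and IGF signalling were tested. In skip1 induced, where 14.7% of all genes were called, the only calls were the phosphatase gene Ptpn1, higher (1.23), and Rptor, of the mTOR complex, lower (-0.67). In skip2 induced, beside 14.9% of all genes, only the adaptor gene Irs1 was called, higher (1.53, SE 0.34, limma adjusted p = 0.00444). In dN90 induced 7 of 21 were called by limma, beside the 37.5% of all genes, among them Irs1 (1.17), Irs2 (0.98) and Akt1 (0.61), which were higher, and Sos1 (-0.73), Rptor (-0.73) and Akt2 (-0.48), which were lower. The Irs1 calls, and that of Rptor in dN90 induced, held without any 1 library. Ptpn1 in skip1 induced lost its call without skip1 alone replicate 3 (0.93), and in skip1 induced Rptor lost it in 6 of 8 such fits. In dN90 induced 7 of 11 lost that of Irs2, 4 that of Akt1, 6 that of Sos1 and 9 that of Akt2. List medians were -0.16, -0.16 and -0.05 in skip1, skip2 and dN90 induced.

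Genes that FOXO1 and fasting control in liver were called in both directions. Of the gluconeogenic genes, G6pc, the glucose-6-phosphatase gene, was at -1.77 in skip1 induced (107 against 345 normalised counts), -2.76 in skip2 induced (24.4 against 174) and -3.59 in dN90 induced (21.3 against 258), all called by limma. Without skip1 alone replicate 3 the skip1 value was -1.51 with a limma adjusted p = 0.051. Pck1, which encodes the enzyme that starts gluconeogenesis, fell in dN90 induced (-2.64, limma adjusted p = 1.66e-05) and in skip1 induced (-1.44, limma adjusted p = 0.0330), the last call being lost in 6 of 8 fits without 1 library and with quantile normalisation (-0.72). Cdkn1a, a cell cycle inhibitor gene, was higher by 3.51, 3.17 and 2.64 in skip1, skip2 and dN90 induced, although in skip2 induced not without skip2 induced replicate 1 (2.76) or skip2 alone replicate 2 (2.62) or with a depth covariate (2.37). With a mean of 10.9 normalised counts over the 18 libraries Cdkn1a passed the expression filter only through the tumour libraries, so a call there was in part built in. Irs2, given above, is also in this list, and it too passed the filter only through tumour libraries. Thus 3 of 8 tested genes were called in skip1 induced, 2 in skip2 induced and 5 in dN90 induced, Cdkn1a included, beside 14.7%, 14.9% and 37.5% of all genes. Between tumour groups G6pc was higher in skip1 induced than in skip2 induced (1.95, limma adjusted p = 0.0241) and dN90 induced (2.35, limma adjusted p = 0.000381), the skip2 comparison not being called without skip1 induced replicate 5 (1.93) or either skip2 induced library (2.16 without replicate 1 and 1.75 without replicate 2). Pck1 was higher in skip1 than in dN90 induced by 1.43 (limma adjusted p = 0.0482), a call lost in 5 of 9 such fits.

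Of 31 other imprinted genes listed, 22 are in the table and 8 were tested, and none was called higher in all 3 tumour groups. Slc38a4, an amino acid transporter gene, fell in skip1 induced (-1.34, SE 0.26, limma adjusted p = 0.00166) and in dN90 induced (-1.12, SE 0.23, limma adjusted p = 0.000553), where quantile normalisation gave -0.53 and no call. Dcn, which encodes a matrix proteoglycan of stellate cells, fell in dN90 induced (-1.30, limma adjusted p = 0.00127). In skip2 induced Dcn (-1.39) and Mest (-1.23) were lower by limma, but their calls were lost in 4 of 4 and 3 of 4 fits without 1 library, and Mest without skip2 induced replicate 1 was at -0.55. Dcn is among the stellate cell and fibroblast markers summed above. Their sum was higher in skip2 induced than in skip2 alone and overlapped that of the references in dN90 induced. Against dN90 induced, Mest was at -1.18 in skip2 induced (limma adjusted p = 0.0459), a call lost in 4 of 6 fits without 1 library, at -0.50 without skip2 induced replicate 1, and in 4 of 6 other settings, at -0.69 with a depth covariate. The non-coding RNA gene Kcnq1ot1 (0.94) and Zrsr1 (0.72) were higher in dN90 induced, without dN90 induced replicate 2 at 0.68 and 0.44 and no longer called, and Zrsr1 lost its call in 6 of 11 fits without 1 library. With Igf2r, called genes were thus 2 of 8 in skip1, 2 in skip2 and 4 in dN90 induced, beside 14.7%, 14.9% and 37.5% of all genes, and list medians lay between -0.11 and -0.03.

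Of 12 genes silenced in liver after birth, as H19 is, or that regulate such genes, 10 are in the table and 6 were tested. In skip1, skip2 and dN90 induced 1, 3 and 4 of the 6 were called, beside 14.7%, 14.9% and 37.5% of all genes, and the list medians were 0.90, 1.46 and 1.18. Gpc3 and Scd2 passed the expression filter only through the tumour libraries in which they are high, so their calls were in part built in and the counts support nothing further. Gpc3, an oncofetal surface proteoglycan gene, rose in all 3 tumour groups, to 89.2, 177 and 162 normalised counts in skip1, skip2 and dN90 induced, against 1.09, 0.578 and 0.796 in their references, with log2 differences of 5.54, 6.92 and 6.62 and limma adjusted p = 5.78e-09, 1.63e-08 and 3.54e-12. Scd2, a fatty acid desaturase gene of fetal liver, rose in skip2 induced (3.62, limma adjusted p = 0.00229) and dN90 induced (2.19, limma adjusted p = 0.000974), and so did the lipase gene Lpl (2.30 and 1.50, limma adjusted p = 0.00450 and 0.00114), in skip2 induced not without skip2 alone replicate 2 (1.90) or with a depth covariate (1.78). Zbtb20, a repressor of fetal genes, was lower in dN90 induced (-0.67), a call lost without dN90 induced replicate 4 (-0.42) or wild type replicate 1 (-0.59). Gpc3 was not called between tumour groups, with -1.01 (95% interval -1.87 to -0.15) for skip1 against skip2 induced. Igf2bp3, which encodes a fetal RNA-binding protein, is in both this list and that of the IGF genes, and it was called in no comparison. Afp, also in this list, averaged 4.41 normalised counts over the 18 libraries and was not tested. It did not rise, at means of 4.67, 3.26 and 1.50 in skip1, skip2 and dN90 induced. The Afp means were 4.74, 8.06 and 6.57 in skip1 alone, skip2 alone and wild type.

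The 16 libraries of subtypes A and B and of the YAPS127A livers have z-scores only, for genes that the authors selected, so they are described with no test. Igfals had z-scores of 0.07, -0.44, -0.23 and -0.39 in subtype A, and in subtype B it ran from -0.69 over a median of -0.56 to -0.38. In sgActin and YAPS127A livers it had 2.01, 1.99 and 2.14. Both subtypes lay far below the YAPS127A livers, and they overlapped each other. Igfbp1 went the other way, at -0.08, 0.88, 0.90 and 0.89 in subtype A and from -1.11 over a median of 0.09 to 1.62 in subtype B, against -1.35, -1.22 and -1.25 in sgActin and YAPS127A livers. Subtype B spanned the whole range of subtype A, and its lowest library stood just above the YAPS127A livers.

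For H19 the z-scores were -0.01, -0.29, -0.18 and -0.33 in subtype A and -0.32 to 0.05, with a median of -0.28, in subtype B, against -0.352, -0.353 and -0.354 in sgActin and YAPS127A livers. The subtypes overlapped, and both lay above the control livers by a small distance. The 16 values sum to -3.85 rather than 0, and 1 further library, not analysed here, in which H19 was far higher, would hold 92.7% of the summed squared z-score, which compresses the differences among the 16. Groups did not overlap for 0 of the 3 genes between subtypes (38.9% of the 1659 genes), and for all 3 between subtype A and the control livers (98.6%) and between subtype B and them (98.9%), as for nearly all genes of a table selected on these samples. Z-scores carry no level, so these libraries cannot be set beside the normalised counts of the skip1, skip2 and dN90 livers.

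**Figure D4:**
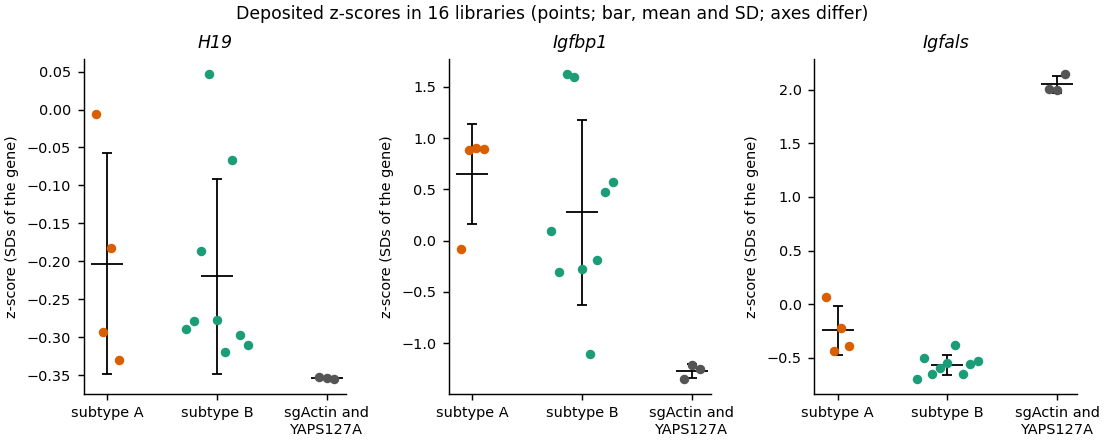
Deposited z-scores of H19, Igfbp1 and Igfals in subtype A, subtype B and sgActin and YAPS127A livers, with 1 point per library and the mean and SD as bars, on y axes whose ranges differ. Igfals lies at 1.99 or above in the control livers and at 0.07 or below in both subtypes, and H19 spans only -0.354 to 0.05 in all.

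The genes whose log2 levels ran most like each member over the 18 libraries were found by Pearson's r, as a description, since the libraries fall into tumour and reference clusters that such an r reflects. H19 was most like F11r, a junction adhesion gene (r = 0.929), then Scn7a, Fgfbp1 and Anxa4. Igf1 was most like Deptor, which encodes an mTOR inhibitor (r = 0.934), then Larp4, Aldh5a1 and Hs3st3b1. Igfals was closest to Ugt2b5, a glucuronosyltransferase gene (r = 0.956), then Slc22a30, Zcchc24 and Phyh. Igfbp4 was closest to Stard4, a sterol transfer gene (r = 0.900), then Mettl7a1 and F7. The nearest genes were less close for Igfbp1, with Qpct first (r = 0.844) and then Slc25a4 and Ocln. For Igfbp2 Scamp5 came first (r = 0.844), then Ahsg, a plasma protein gene, Acsl4 and Eif3f at 0.700.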

How the data were processed

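Total RNA of frozen liver tumours was sequenced from strand-specific libraries, per the labels' protocols. The deposited normalised counts, treated as a signal that is never negative, were made by the authors with FastQC, STAR, RSEM and DESeq2 on mm10, per the submitters' processing notes, which give no versions, roles or settings. The second deposited table holds a score, a z-score per gene scaled by the authors over 2 blocks of libraries, with the scale before scaling not given in the sources used here.

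The 6592 genes whose mean over 18 libraries reached 10 were tested as log2(normalised count + 1) with two-sided limma (3.58.1, R 4.3.3), a coefficient for each group and a trended prior, with Benjamini-Hochberg adjustment over all genes and calls at an adjusted p under 0.05. For dN90 induced the reference was the equally weighted mean of wild type, skip1 alone and skip2 alone. Fold changes on this scale understate the change of low genes. Reads per library were estimated by taking the most frequent value above 0 as 1 read, or a fraction of it where most values were then not whole. About 60% of the values above 0 came out whole within 0.001, so no count test was run. The code was tested on simulated data. The genes and lists were chosen with earlier results of these data known. Named genes are the 6, every called gene of a list up to 6 per list and comparison, Igf2, Igf1r, Igf2r, Ghr, Socs2 and Stat5b, and the 4 genes most like each of the 6, of which a few are not reported here. Ctsd, Cd81, Mrpl23, Lsp1, Insr, Igf2bp3 and Afp were named after their values were seen.

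Replicates are numbered in the order of deposit and pair no samples. Alternatives were the pseudocount, the filter, quantile normalisation, a depth covariate, fits of only the groups compared, each library left out in turn and, added after seeing the data, skip1 induced replicates 1 and 2 left out together.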

Additional observations from a re-analysis of the deposited data

Results flagged for a closer look

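Igfbp1 had a z-score of -0.0795 in subtype A replicate 1, far below the other 3 subtype A libraries at 0.88 to 0.90, a gap of 0.984 of the group's range. Gaps were flagged above a threshold that is passed by chance in about 1 in 20 groups, and 18 groups were examined. The gap seen here lies above that threshold, and how often chance gives one as large was not worked out. Igfbp2 moved in opposite directions in the exon-skip tumours, with a log2 difference of -1.85 in skip1 induced against skip1 alone and 2.19 in skip2 induced against skip2 alone, and the difference between these differences was not tested.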

How the results depend on the processing

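No paired analysis was possible because the labels give no replicate numbers. The count of the 6 genes called in skip1 induced against skip1 alone was 2 with quantile normalisation and 2 to 5 without single libraries, and in skip2 induced it was 5 when the compared groups alone were fitted. A mean filter of 50 removes some of the 6 genes, so it gave no count of them, and it gave 545, 526 and 925 called genes in skip1, skip2 and dN90 induced against their references, since fewer genes are tested, and 0 in skip2 alone against wild type. That last count was 4 with a pseudocount of 5, 2 with no filter and 2 when fitted alone. With depth as a covariate, 13 genes were called between skip1 and skip2 induced and 0 between skip2 and dN90 induced, which had 7 when fitted alone, and the cause was not tested. Without single libraries the counts of called genes ranged over 568 to 1217 (skip1 induced), 346 to 788 (skip2 induced), 2018 to 2532 (dN90 induced), 0 to 1 (skip1 alone), 0 to 1 (skip2 alone), 10 to 342 (skip1 against skip2 induced) and 7 to 308 (skip2 against dN90 induced). Genes of the 6 with no overlap then numbered 2 to 4 (skip1 against skip2 induced), 1 to 3 (skip2 against dN90 induced, 2 with quantile normalisation) and 0 to 1 (subtype A against B).

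None of the tested differences that changed sign or reached 0 was called in the full fit. For Igfbp1 in skip1 induced it was 0.13 with a pseudocount of 5, -0.58 to 0.39 without single libraries and 1.02 without skip1 induced replicates 1 and 2. Igfbp4 turned to 0.54 and 0.34 in skip2 and dN90 induced with quantile normalisation. Igfbp2 in dN90 induced was -0.16 with depth and -0.12 to 0.29 without single libraries. In skip1 alone against wild type, Igf1 was -0.096 with quantile normalisation and -0.31 to 0.36 without single libraries, H19 -1.09 to 0.00 and Igfals -0.12 to 0.15. In skip2 alone, Igf1 was -0.046 with quantile normalisation and -0.23 to 0.43 without single libraries, and H19 -0.16 with depth and -0.55 to 0.70. Some untested differences between tumour groups also changed sign. Without single libraries, Igf1 was -0.11 to 0.49 for skip1 against dN90 induced, and Igfbp1 was -0.29 to 0.58 for skip2 against dN90 induced. Over the other settings, Igf1 was -0.32 to 0.12 for skip1 against skip2 induced, and Igfbp4 was -0.07 to 0.22 for skip2 against dN90 induced. With depth, Igfbp2 was -3.49 for skip1 against skip2 induced and 2.13 for skip2 against dN90 induced, and H19 2.66 for the last pair. Depth limits H19, Igf2 and Igfbp1, whose low values rest on a few reads.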
